A study of Mus musculus with 6 samples.

Results

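Sp100, Sp110, Sp140, Pml and Daxx, genes of the nuclear structures called PML bodies, were followed in monocytes from mouse melanomas. These 5 genes were picked by symbol from the 56980 genes of the deposited count table, with earlier results of these data known. All 5 were found once, and all 5 were among the 16010 genes with enough counts to be tested. RNA was sequenced in 6 libraries of cells sorted from B16F10 tumours as CD11b+, Ly6C high and Ly6G-, which is the phenotype of inflammatory monocytes. In 3 libraries the treatment was lipid nanoparticles with mRNA for gasdermin E (LNP-Gsdme), a pore-forming protein that can start lytic cell death, and in 3 it was nanoparticles for green fluorescent protein (LNP-GFP). B16F10 is a transplanted mouse melanoma line, and the tumours were grown as an mCherry-marked form. The genotype is given as WT in both groups. Mouse age, dose, route and sampling time, and any pooling of animals, are not stated in the sources used here. Nothing in the labels says that the libraries of a group came from separate mice, so p-values reflect variation among the libraries sampled, and that may be technical only.

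PML bodies are dots in the cell nucleus that are built on PML, a protein that assembles once it is modified with the small protein SUMO. PML draws in partners such as SP100 and the histone chaperone DAXX, which works with ATRX to place histone H3.3 in silent chromatin, and together they hold back many viruses that replicate in the nucleus. PML, SP100 and SP110 are known as interferon-induced genes. SP100, SP110 and SP140 are relatives known as speckled proteins, which carry a SAND domain, and in mice loss of Sp140 is known to raise type I interferon and susceptibility to bacterial infection. The comparison addresses the state of monocytes in tumours that received gasdermin E, and the series title names type I interferon signalling.

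In monocytes of LNP-Gsdme tumours Sp100 and Sp140 rose, and Sp110, Pml and Daxx had higher means that did not pass the test. Sp100 reached 296 ± 27.1 CPM (counts scaled to a common library size) in LNP-Gsdme and 158 ± 2.91 CPM in LNP-GFP (SD, n = 3 each), a 1.88-fold difference. Thus 2 of the 5 genes rose, against 6.3% of all genes tested that rose, 5.32% that fell and 11.6% that did either, by an edgeR quasi-likelihood test with Benjamini-Hochberg adjustment over all 16010 genes and a threshold of 0.05. The median log2 fold change was 0.57 over the 5 genes and -0.01 over all genes tested. All LNP-Gsdme libraries stood above all LNP-GFP libraries for the same 2 genes, as they did for 19.6% of all genes tested. Only Sp100 kept its call when any single library was left out.

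The annotated starts of these genes were searched for the sequences that interferon-activated factors are known to bind, since several of the genes are known to answer to interferon. The search covered 250 bases before to 50 after each start on both strands, in RefSeq promoters of build GRCm38.p6 (the count table uses GRCm39). All 5 gene symbols were found among these promoters. The letters AANNGAAA, the short element of interferon regulatory factors, were found in Sp100, Sp110 and Pml. The longer interferon-stimulated response element core GAAANNGAAA and the STAT element TTCNNNGAA were found in none of the windows of the 5 genes. Of 32851 promoter windows of this length, 23.9% held AANNGAAA, 3.44% held GAAANNGAAA and 8.3% held TTCNNNGAA. These shares are per window, whereas a gene with several listed starts counted as holding a match if any of its windows did. The 4 windows shown are those of the 2 genes that rose and of the 2 others in which a match was found: the first of 2 listed Sp100 starts at chr1:85649738-85650037 on the plus strand, the second of 2 listed Sp110 starts at chr1:85598761-85599060 on the minus strand, Pml at chr9:58249737-58250036 on the minus strand and Sp140 at chr1:85600453-85600752 on the plus strand. Capitals mark AANNGAAA, which in each case lies on the opposite strand and so appears as its reverse complement.
Sp100: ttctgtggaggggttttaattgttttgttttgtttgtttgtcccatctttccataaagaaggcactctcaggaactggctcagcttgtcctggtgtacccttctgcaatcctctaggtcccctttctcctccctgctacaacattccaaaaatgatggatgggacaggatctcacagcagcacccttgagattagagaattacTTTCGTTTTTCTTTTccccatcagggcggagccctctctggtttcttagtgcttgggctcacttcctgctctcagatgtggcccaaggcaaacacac
Sp110: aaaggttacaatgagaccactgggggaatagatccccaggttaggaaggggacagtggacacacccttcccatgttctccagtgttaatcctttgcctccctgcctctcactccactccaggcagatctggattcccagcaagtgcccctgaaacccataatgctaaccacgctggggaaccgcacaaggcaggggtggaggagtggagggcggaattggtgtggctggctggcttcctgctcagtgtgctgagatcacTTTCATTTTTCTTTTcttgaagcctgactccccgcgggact
Pml: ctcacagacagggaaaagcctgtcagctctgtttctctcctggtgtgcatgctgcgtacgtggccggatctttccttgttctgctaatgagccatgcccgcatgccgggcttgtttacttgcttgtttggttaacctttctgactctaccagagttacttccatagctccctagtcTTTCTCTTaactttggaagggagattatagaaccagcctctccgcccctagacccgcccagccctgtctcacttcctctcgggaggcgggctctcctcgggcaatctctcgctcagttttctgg
Sp140: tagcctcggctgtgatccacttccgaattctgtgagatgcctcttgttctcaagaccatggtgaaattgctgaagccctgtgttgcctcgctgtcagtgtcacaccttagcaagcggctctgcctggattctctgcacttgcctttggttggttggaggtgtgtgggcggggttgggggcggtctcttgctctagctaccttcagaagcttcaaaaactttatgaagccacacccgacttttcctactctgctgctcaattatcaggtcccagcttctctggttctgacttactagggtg
In Sp100 the element lay at positions -47 to -40 and again at -40 to -33, the matches overlapping by a base, with 1 as the first base of the transcript. Counted from the second listed Sp100 start, the same bases lay at -73 to -66 and -66 to -59. In Sp110 the same tandem form lay just inside the transcript, at positions 10 to 17 and 17 to 24, and the other listed Sp110 start had no match. At least 2 matches were found in 5.34% of all windows. Pml had a single match at -74 to -67. Sp140 and the 3 listed starts of Daxx had none, which says only that these letters are not in these windows. A match is a description of the sequence and not a measured binding site.

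Sp100, the speckled protein that is a permanent component of PML bodies, had the smallest p of the 5. It (ENSMUSG00000026222) lies on chromosome 1 from 85577709 to 85637719 (GRCm39, the build of the deposited positions). Its counts were 5406, 5103 and 5159 in LNP-Gsdme 1 to 3, against 3694, 3404 and 3128 in LNP-GFP 1 to 3. Scaled by library size these were 304, 318 and 266 CPM in LNP-Gsdme and 161, 156 and 156 CPM in LNP-GFP. The groups were well apart, and the LNP-GFP libraries were nearly alike. The log2 fold change was 0.91 with an SE of 0.09 (3 libraries a group), a 95% interval of 0.70 to 1.11 and an edgeR adjusted p = 0.00579. Its p-value was the 59th smallest of 16010. With each library left out in turn its log2 fold change stayed between 0.86 and 0.98 and its edgeR adjusted p between 0.00423 and 0.0482.

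Sp140, a speckled protein that reads chromatin through a bromodomain and is best known from lymphocytes and macrophages, was the other gene that rose. It (ENSMUSG00000070031) lies next to Sp100 on chromosome 1, from 85528099 to 85572758. Its level was 163, 108 and 135 CPM in LNP-Gsdme 1 to 3, against 75.4, 93.2 and 84.4 CPM in LNP-GFP 1 to 3. The groups did not overlap, but LNP-Gsdme 2 stood only a little above LNP-GFP 2. The log2 fold change was 0.68 with an SE of 0.16 (3 libraries a group; 95% interval 0.30 to 1.07; edgeR adjusted p = 0.0443). The call ended when any of the 6 libraries was left out, with edgeR adjusted p from 0.0612 to 0.154 (0.154 without LNP-GFP 3), and the log2 fold change then ranged from 0.53 to 0.82. It also ended with upper-quartile scaling (adjusted p = 0.0533), while DESeq2 gave an adjusted p of 0.00295.

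Sp110 (ENSMUSG00000070034), a nuclear body protein whose region in mice is known for control of tuberculosis, lies beside Sp140, from 85504620 to 85526538. Its level was 143, 84.7 and 124 CPM in LNP-Gsdme 1 to 3, against 86.7, 74.5 and 75.9 CPM in LNP-GFP 1 to 3. LNP-Gsdme 1 and 3 were above every LNP-GFP library, and LNP-Gsdme 2 was below LNP-GFP 1. The log2 fold change was 0.57 with an SE of 0.19 (3 libraries a group; 95% interval 0.11 to 1.02; edgeR adjusted p = 0.0989). By DESeq2 it passed, with an adjusted p of 0.0415. Without LNP-Gsdme 2 the log2 fold change was 0.76 and the edgeR adjusted p was 0.0526. The libraries thus ranked alike for the neighbours Sp110 and Sp140 within LNP-Gsdme, where LNP-Gsdme 1 was highest and LNP-Gsdme 2 lowest, while for Sp100 LNP-Gsdme 2 was highest.

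Pml (ENSMUSG00000036986), the scaffold of the bodies, had the lowest level of the 5 genes per length and did not pass the test. It lies on chromosome 9 from 58125359 to 58157069. Its level was 58.5, 73.8 and 104 CPM in LNP-Gsdme 1 to 3, against 60.0, 45.2 and 56.6 CPM in LNP-GFP 1 to 3. LNP-Gsdme 3 was the highest library, and LNP-Gsdme 1 lay within the LNP-GFP range. The log2 fold change was 0.54 with an SE of 0.22 (3 libraries a group; 95% interval 0.02 to 1.07; edgeR adjusted p = 0.148). Without LNP-Gsdme 3 it was 0.30, with an edgeR adjusted p of 0.264.

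Daxx (ENSMUSG00000002307), the histone chaperone and cell death regulator, had the widest LNP-GFP values of the 5 and did not pass. It lies on chromosome 17 from 34128388 to 34134564. Its level was 167, 181 and 152 CPM in LNP-Gsdme 1 to 3, against 86.3, 179 and 128 CPM in LNP-GFP 1 to 3. LNP-GFP 2 reached the level of the LNP-Gsdme libraries, and LNP-GFP 1 was at the bottom. The log2 fold change was 0.35 with an SE of 0.25 (3 libraries a group; 95% interval -0.25 to 0.94; edgeR adjusted p = 0.374). Without LNP-GFP 1 it was 0.13, and without LNP-GFP 2 it was 0.64 (edgeR adjusted p = 0.586 and 0.0980).

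**Figure D1:**
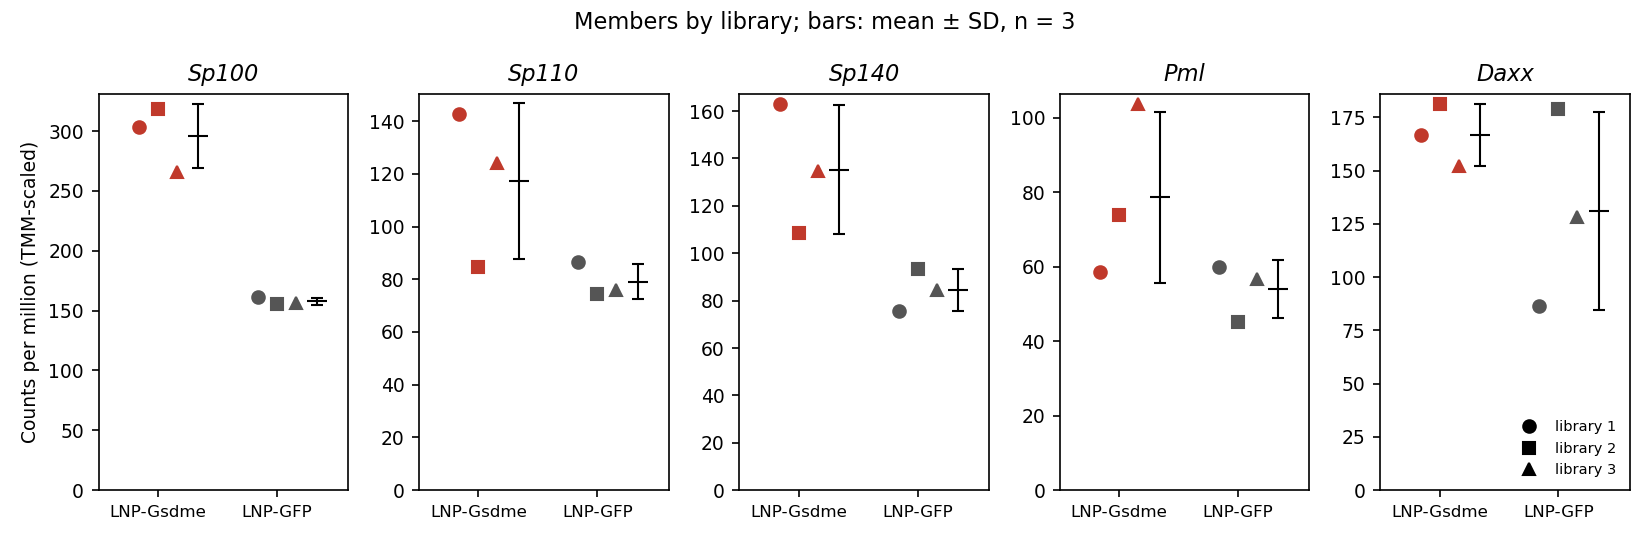
Level of each gene in CPM (y axis, counts scaled by library size with TMM factors) in LNP-Gsdme and LNP-GFP libraries; symbols are the libraries 1 to 3 and bars the mean ± SD (n = 3). Sp100 stands at 266 to 318 CPM in LNP-Gsdme and 156 to 161 CPM in LNP-GFP, whereas Sp110, Pml and Daxx overlap between the groups.

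**Figure D2:**
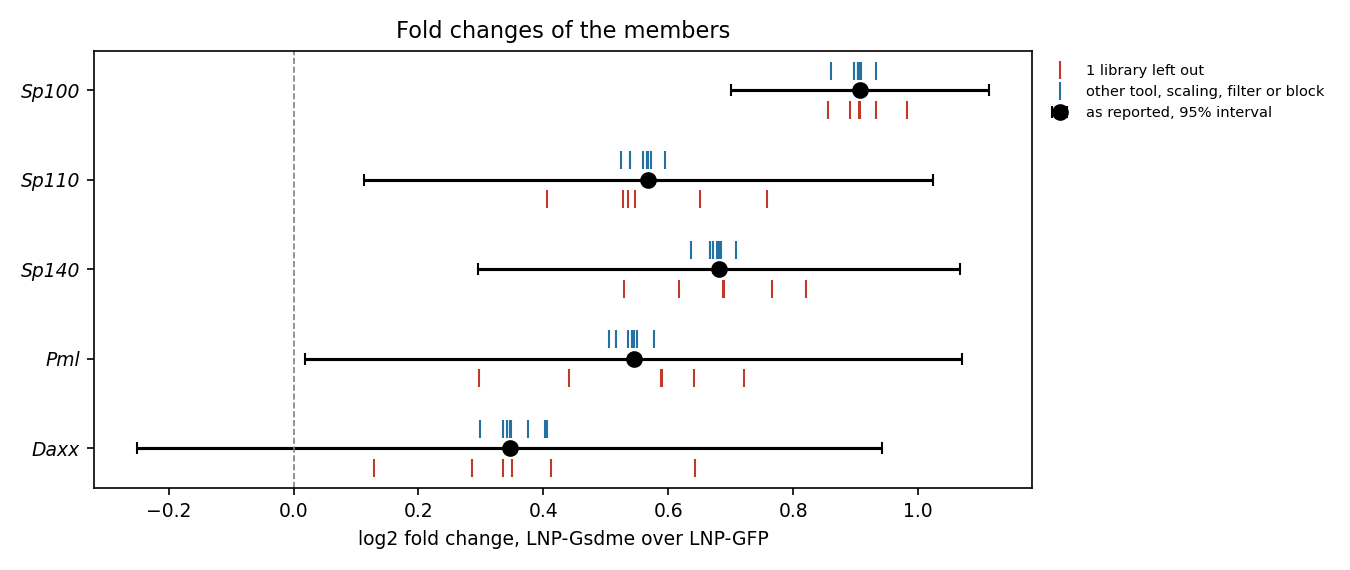
Log2 fold change of each gene, LNP-Gsdme over LNP-GFP (x axis), with its 95% interval in black, the values with 1 library left out in red below it and those of the other alternatives in blue above it. All point values are above 0, the interval of Daxx reaches -0.25, and the Daxx values with a library left out spread from 0.13 to 0.64.

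The profiles of the 5 genes over the libraries differed. Each gene's log2 CPM was centred on its own mean over the 6 libraries, and pairs were compared by the root mean square difference of the centred values, where 0 is an identical profile. Sp110 and Sp140 were the pair most alike (0.18) and Pml and Daxx the least alike (0.51). Sp100 was nearest to Sp140 (0.26), then to Sp110 (0.33), Pml (0.38) and Daxx (0.40). The full range of a gene over the libraries was 0.94 for Sp110, 1.03 for Sp100, 1.07 for Daxx, 1.11 for Sp140 and 1.19 for Pml on the same log2 scale. In LNP-GFP 2 Daxx was 0.31 above its mean and Pml 0.50 below its mean, and in LNP-GFP 1 Daxx was 0.74 below and Pml 0.09 below.

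**Figure D3:**
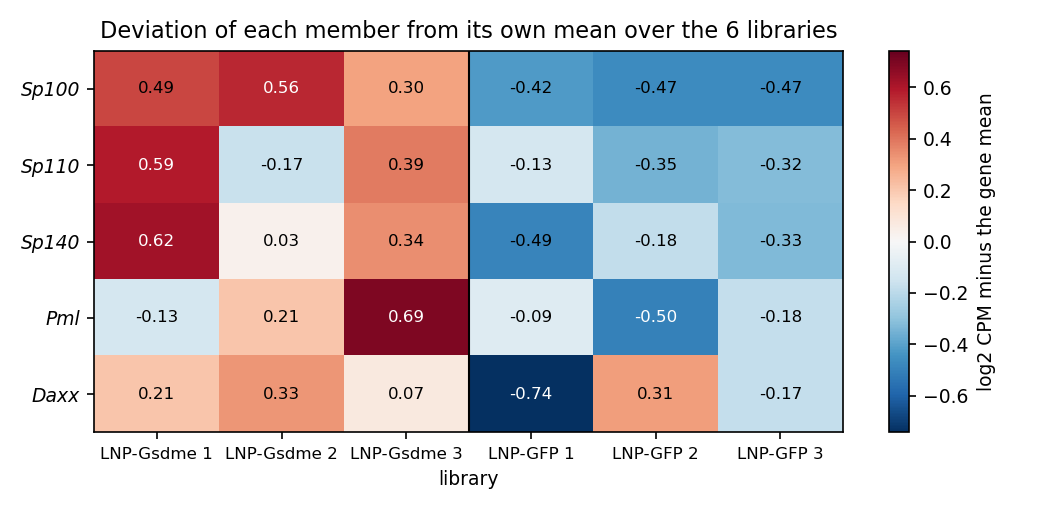
Deviation of each gene (rows) from its own mean log2 CPM in each library (columns), with the value written in the cell. Sp100 is above its mean in all 3 LNP-Gsdme libraries and 0.42 to 0.47 below it in all 3 LNP-GFP libraries, while Daxx runs from -0.74 in LNP-GFP 1 to 0.33 in LNP-Gsdme 2.

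Levels of different genes were set side by side only per length, as the deposited FPKM (fragments scaled by gene length and library total). In LNP-Gsdme the order was Sp100 (29.96 ± 2.22 FPKM), Sp140 (28.7 ± 5.54), Daxx (25.8 ± 1.92), Sp110 (12.8 ± 3.19) and Pml (5.10 ± 1.61; SD, n = 3 each). In LNP-GFP it was Daxx (19.8 ± 6.82 FPKM), Sp140 (17.5 ± 1.66), Sp100 (15.7 ± 0.450), Sp110 (8.48 ± 0.802) and Pml (3.42 ± 0.525; SD, n = 3 each). The upper 3 overlapped one another within each group, while Sp110 stood below them and Pml below Sp110 in every library. These levels depend on the gene lengths behind the deposited values, which are not stated. Lengths were therefore worked back from the counts, FPKM and library totals, taking those totals as the FPKM scale. They came to 9951 bases for Sp100, 9225 for Sp110, 4755 for Sp140, 15624 for Pml and 6517 for Daxx. The longest transcripts in GENCODE M21 were 3807 bases for Sp100, 2583 for Sp110, 2417 for Sp140, 4481 for Pml and 2673 for Daxx. The derived lengths thus exceeded any single transcript of that release, and the release behind the FPKM is not named.

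Ratios of these genes within a library do not depend on the scaling between libraries, and 5 were compared. None could pass, because 3 against 3 libraries cannot go below p = 0.1 in an exact two-sided permutation test. The ratio of Sp110 to Sp100, in FPKM, was 0.507, 0.287 and 0.503 in LNP-Gsdme 1 to 3, against 0.580, 0.516 and 0.524 in LNP-GFP 1 to 3. Those groups did not overlap, though LNP-Gsdme 1 and LNP-GFP 2 nearly met (exact permutation p = 0.1, 0.5 adjusted over the 5 ratios). The log2 difference was -0.37, and -0.09 without LNP-Gsdme 2. The ratio of Sp140 to Sp100 was 0.965 ± 0.221 in LNP-Gsdme and 1.12 ± 0.136 in LNP-GFP, and that of Pml to Sp100 was 0.173 ± 0.0664 in LNP-Gsdme and 0.218 ± 0.0286 in LNP-GFP (SD, n = 3 each; exact permutation p = 0.4 for both). The ratio of Daxx to its partner Atrx, the chromatin remodeller, was 12.5, 13.5 and 10.2 in LNP-Gsdme 1 to 3, against 5.92, 15.8 and 8.38 in LNP-GFP 1 to 3, and the groups overlapped (exact permutation p = 0.5). The ratio of Daxx to Pml was 5.41 ± 1.71 in LNP-Gsdme and 6.12 ± 3.08 in LNP-GFP (SD, n = 3 each; exact permutation p = 1).

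Sp100, Sp110 and Sp140 lie side by side in a part of chromosome 1 that is rich in copies of these genes, and this bears on how securely reads can be given to each. Transcripts of GENCODE M21 were cut into all windows of 100 bases, and a window was called shared when a transcript of another gene held the same bases on either strand. Of the windows of Sp140, 35.6% were shared, most often with Gm17017, whose deposited position overlaps both Sp140 and Sp100. Of those of Sp110, 21.9% were shared, most often with Gm16026. For Sp100 the share was 1.74%, for Pml 0.0962% and for Daxx 0%. The strand setting and the treatment of reads with several matches are not stated in the sources used here. By this search the counts of Sp110 and Sp140 are therefore less certain than those of Sp100, Pml and Daxx. The search covers only annotated transcripts. Csprs, a relative described below, had 0 transcripts under that symbol in GENCODE M21, so windows shared with Csprs were not identified.

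Of 51 genes within 500 kb of the speckled protein cluster 24 could be tested. Of these 24, 11 had all LNP-Gsdme libraries above all LNP-GFP libraries and 2 had them all below, against 19.6% and 18.2% of all genes tested. By edgeR 3 of the 24 rose and 0 fell (9 higher and 2 lower at an unadjusted p below 0.05; 5 and 1 by DESeq2; 3 and 0 by limma-voom). Their median log2 fold change was 0.66. Of all genes tested, 6.3% rose and 5.32% fell by edgeR, and by DESeq2 1469 rose and 1514 fell of 15586. At least 5048 of the 16010 genes tested had an unadjusted edgeR p below 0.05, in either direction. The count of neighbours called was 0 without LNP-Gsdme 1 or LNP-GFP 3, and 1 without LNP-Gsdme 2 or LNP-GFP 2. The 3 that rose, named after their values were seen, were A530032D15Rik, Gm7609 and Gm2619. A530032D15Rik reached 14.2 ± 2.07 CPM in LNP-Gsdme and 6.35 ± 1.84 CPM in LNP-GFP (SD, n = 3 each; log2 fold change 1.16 ± 0.24 SE, edgeR adjusted p = 0.0329). Of its 100-base windows 15.5% were shared, most often with Sp140. Gm7609 and Gm2619 had log2 fold changes of 1.89 and 1.04 (edgeR adjusted p = 0.0129 and 0.0261), at 2.64 and 3.22 CPM in LNP-Gsdme and 0.705 and 1.56 CPM in LNP-GFP. In windows of 50 bases Sp100 shared 201 with Gm7609 and 207 with Gm2619. C130026I21Rik, also singled out after its values were seen because it shares windows most often with Sp140, had a log2 fold change of 0.84 with an SE of 0.23 (3 libraries a group; edgeR adjusted p = 0.0616).

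By edgeR none of the 6 neighbours with established names passed the test. Cab39, a scaffold of the kinase LKB1, had a log2 fold change of -0.04, Itm2c -0.25, Gpr55 -0.15, Psmd1, a proteasome subunit, -0.31, Htr2b 0.03 and Armc9 0.38, with edgeR adjusted p from 0.0538 to 0.967. Itm2c was called as fallen by DESeq2 (adjusted p = 0.00608), with upper-quartile factors (0.0299) and with the stricter low-count filter (0.0444). Csprs, a relative placed on the scaffold GL456221.1, had 21, 13 and 28 counts in LNP-Gsdme 1 to 3, against 2, 10 and 5 counts in LNP-GFP 1 to 3. It rose, with a log2 fold change of 2.10 with an SE of 0.52 (3 libraries a group; edgeR adjusted p = 0.0470), on very few counts. Of the 6 fits with a library left out, Csprs kept its call in 1, without LNP-GFP 2. Aire, the SAND-domain regulator of thymic self-antigens, was at 3 to 22 counts in LNP-Gsdme and 18 to 53 counts in LNP-GFP and did not pass (edgeR adjusted p = 0.222). Its highest LNP-Gsdme count was in LNP-Gsdme 3, and without that library it was called as fallen, with a log2 fold change of -3.02 and an edgeR adjusted p of 0.0490.

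**Figure D4:**
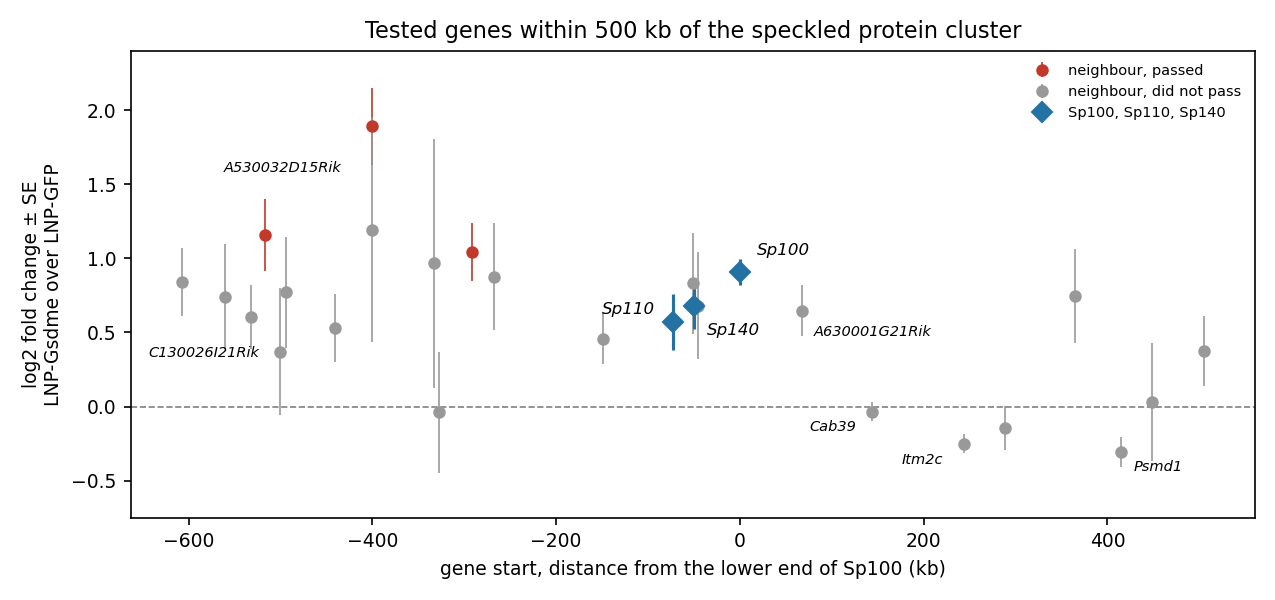
Log2 fold change ± SE of the tested genes around the speckled protein cluster (y axis) against the distance of their lower coordinate from that of Sp100 in kb (x axis). Sp110, Sp140 and Sp100 lie at 0.57, 0.68 and 0.91 and the highest gene, Gm7609, at 1.89, while Cab39, Itm2c and Psmd1 to the right lie at -0.04 to -0.31. Also to the right, A630001G21Rik lies at 0.65, Gm18180 at 0.75 and Armc9 at 0.38, and none of them passed by edgeR.

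Transcription factors of the interferon response were measured beside these genes. Of 9 tested, 3 rose, and 0 fell by edgeR (8 higher and 0 lower at an unadjusted p below 0.05; 7 and 0 by DESeq2; 3 and 0 by limma-voom). Their median log2 fold change was 0.58. Of all genes tested, 6.3% rose and 5.32% fell by edgeR, and by DESeq2 1469 rose and 1514 fell of 15586. At least 5048 of the 16010 genes tested had an unadjusted edgeR p below 0.05, in either direction. Irf7, which drives interferon genes, was at 792 ± 59.1 CPM in LNP-Gsdme and 277 ± 43.2 CPM in LNP-GFP (SD, n = 3 each; log2 fold change 1.52, edgeR adjusted p = 0.00473). Irf2, a factor that often competes at the same elements, was at 81.0 ± 9.78 CPM in LNP-Gsdme and 43.7 ± 5.56 CPM in LNP-GFP (SD, n = 3 each; log2 fold change 0.89, edgeR adjusted p = 0.0146). The count called was 1 without LNP-Gsdme 1, LNP-Gsdme 2 or LNP-GFP 3 and was 6 without LNP-GFP 1.

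The SUMO enzymes and chromatin partners of the bodies came next. For scale, 6.3% of all genes tested rose and 5.32% fell by edgeR, and by DESeq2 1469 rose and 1514 fell of 15586. At least 5048 of the 16010 genes tested had an unadjusted edgeR p below 0.05, in either direction. Of 22 genes of the SUMO pathway 1 rose and 0 fell by edgeR (3 higher and 2 lower at an unadjusted p below 0.05; 1 and 0 by DESeq2 and by limma-voom), and the median log2 fold change was 0.06. Of 14 genes of histone H3.3 deposition and heterochromatin 1 rose and 0 fell by edgeR (4 higher and 2 lower at an unadjusted p below 0.05; 2 and 0 by DESeq2; 1 and 0 by limma-voom), with a median of -0.0045. This was H3f3b, an H3.3 gene, at 1110 ± 105 CPM in LNP-Gsdme and 855 ± 33.6 CPM in LNP-GFP (SD, n = 3 each; log2 fold change 0.38, edgeR adjusted p = 0.0454). Atrx had a log2 fold change of 0.02 with an SE of 0.12 (3 libraries a group; edgeR adjusted p = 0.934).

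Of 24 client proteins and regulators of PML bodies 3 rose and 0 fell by edgeR (5 higher and 3 lower at an unadjusted p below 0.05; 3 and 1 by DESeq2; 3 and 0 by limma-voom), and the median was 0.02. Of all genes tested, 6.3% rose and 5.32% fell by edgeR. At least 5048 of the 16010 had an unadjusted edgeR p below 0.05, in either direction. Isg20, an interferon-induced exonuclease that has been found in PML bodies, was at 98.7 ± 26.9 CPM in LNP-Gsdme and 31.1 ± 0.602 CPM in LNP-GFP (SD, n = 3 each; log2 fold change 1.67 ± 0.20 SE, edgeR adjusted p = 0.00995). Klhl20, part of a ubiquitin ligase that marks PML for breakdown, rose by 0.82 in log2 units (SE 0.20 from 3 libraries a group; edgeR adjusted p = 0.0473). Rara, the retinoic acid receptor that is fused to PML in human promyelocytic leukaemia, rose by 0.38 in log2 units (SE 0.08 from 3 libraries a group; edgeR adjusted p = 0.0343). Without LNP-GFP 3, 0 genes were called in each of these 3 lists. Without LNP-Gsdme 1, and also without LNP-Gsdme 2, the counts called were 0 for the SUMO pathway, 0 for the histone partners and 1 for the clients. Without LNP-GFP 1 they were 3 (1 rose, 2 fell), 2 and 4 (3 rose, 1 fell), and without LNP-Gsdme 3 or LNP-GFP 2 the clients had 1.

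**Figure D5:**
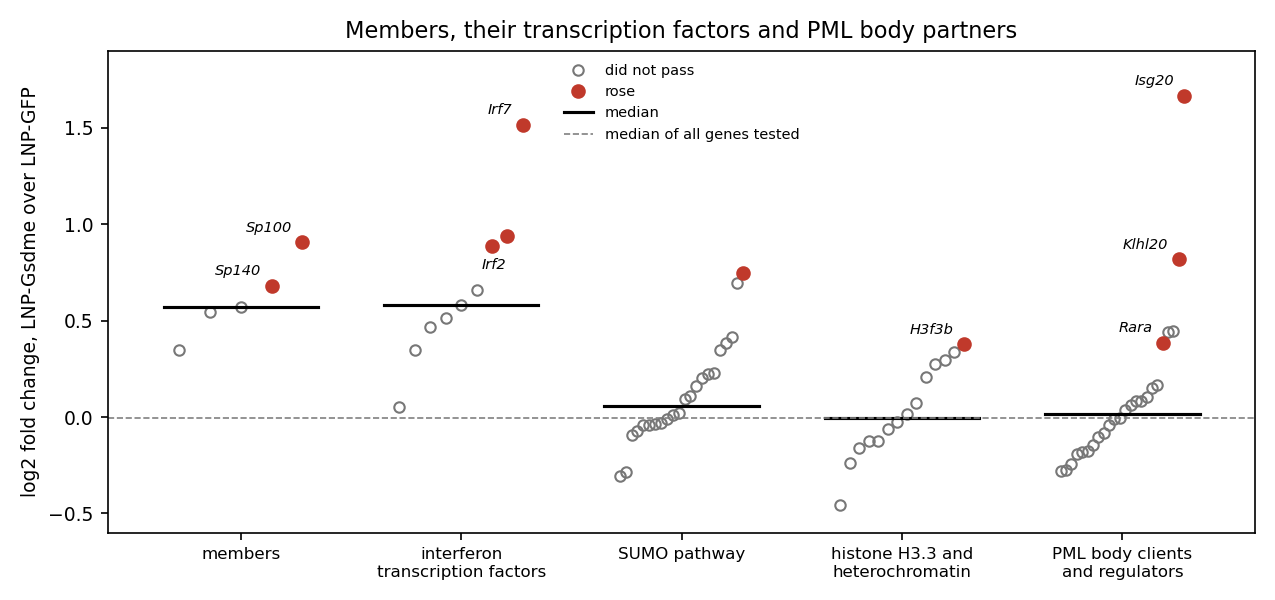
Log2 fold change of every tested gene (points), LNP-Gsdme over LNP-GFP, for the 5 genes described here and 4 lists, with risen genes filled and some of them named, the list medians as bars and the median of all genes tested as a dashed line. The medians are 0.57 for the 5 genes and 0.58 for the interferon factors, and 0.06, -0.0045 and 0.02 for the other lists.

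The genes with the most similar profiles were sought among 10184 tested genes with a mean log2 CPM of at least 2, by the same root mean square difference over the 6 libraries. For Sp100 they included Nfil3, a leucine zipper factor (0.06), and Pmaip1, a cell death gene (0.06). For Sp140 they were Fbxl2 (0.09), Rhov (0.11) and Mlkl, the effector of necroptosis (0.11). For Sp110 they were Emc9 (0.09), Pacsin2 (0.10) and Lrrc47 (0.10). For Pml they were Dyrk3 (0.11), Tmem161a (0.11) and Luc7l (0.14). For Daxx they were Rilpl1 (0.05), Znfx1 (0.06) and Mx1 (0.08), the last an interferon-induced antiviral GTPase, which had a log2 fold change of 0.31 and, like Daxx, did not pass (edgeR adjusted p = 0.438).

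The libraries held 15991826 to 18751784 counts in LNP-Gsdme and 20233559 to 22932095 counts in LNP-GFP. The lowest count among the 5 genes was 987, for Pml in LNP-GFP 2. Gsdme itself was low, at 2.68 to 3.43 CPM in LNP-Gsdme and 2.79 to 4.44 CPM in LNP-GFP. The sort was checked on its defining genes. Itgam, which encodes CD11b, was at 327 to 562 CPM in LNP-Gsdme and 365 to 632 CPM in LNP-GFP, and Ly6g was at 0.155 to 0.618 CPM in LNP-Gsdme and 0 to 0.366 CPM in LNP-GFP. Ly6c2, which encodes the Ly6C antigen of the gate, was at 1374 to 1856 CPM in LNP-Gsdme and 211 to 267 CPM in LNP-GFP, and it has a near-identical copy that could share its reads. Of 10 monocyte markers 4 rose and 1 fell by edgeR, against 6.3% and 5.32% of all genes tested. The sum of the 10 was 8770 to 11090 CPM in LNP-Gsdme and 10077 to 11186 CPM in LNP-GFP.

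Markers of other cells moved between the groups as well, and in such bulk samples fewer cells of a type and less RNA per cell cannot be told apart. The counts of markers that rose or fell by edgeR stand beside 6.3% of all genes tested that rose and 5.32% that fell. Summed NK cell markers were at 460 to 596 CPM in LNP-Gsdme and 115 to 445 CPM in LNP-GFP, without overlap. Of 7 tested 1 rose by edgeR, which was Gzma, while 3 rose by DESeq2 and 2 by limma-voom. Their median log2 fold change was 0.77, and 4 of the 7 were higher without overlap, against 19.6% of all genes tested. Summed T cell markers were at 442 to 570 CPM in LNP-Gsdme and 177 to 523 CPM in LNP-GFP, and of 8 tested 0 passed by edgeR (0 at an unadjusted p below 0.05; 0 by DESeq2 and by limma-voom). Summed fibroblast markers were at 2169 to 5632 CPM in LNP-Gsdme and 9073 to 10131 CPM in LNP-GFP, and 4 of 8 fell. Summed macrophage markers were at 2989 to 3267 CPM in LNP-Gsdme and 3125 to 4945 CPM in LNP-GFP, and 1 of 8 rose and 1 fell. Summed markers of conventional dendritic cells were at 72.1 to 109 CPM in LNP-Gsdme and 126 to 164 CPM in LNP-GFP, without overlap, and 2 of 7 fell, Cd209a (log2 fold change -2.90) and Xcr1 (-1.47). Among the 5 markers of plasmacytoid dendritic cells Siglech fell (-1.74) and Bst2, also an interferon-induced gene, rose (1.20). Of 7 endothelial markers Vwf fell (-0.89) by edgeR, while 3 fell by DESeq2 and 2 by limma-voom. Of 8 neutrophil markers tested Elane rose (3.84), at 0.618 to 1.56 CPM in LNP-Gsdme and 0 to 0.0999 CPM in LNP-GFP. By DESeq2 0 neutrophil markers rose, with 1 left without an adjusted p, and by limma-voom 1 rose. The log2 fold changes of the 8 ran from -1.22 to 3.84, with a median of 0.42. Summed neutrophil markers overlapped, at 65.1 to 114 CPM in LNP-Gsdme and 31.8 to 131 CPM in LNP-GFP. Summed melanoma markers were at 124 to 724 CPM in LNP-Gsdme and 324 to 1752 CPM in LNP-GFP, and of 7 tested 0 passed by edgeR (1 lower at an unadjusted p below 0.05; 0 by DESeq2 and by limma-voom). The mitochondrial share of counts was 1.30 to 1.61% in LNP-Gsdme and 2.02 to 2.41% in LNP-GFP. The part of these shifts in the results was not tested.

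Some of these values were set beside single genes, and what part they had in the level of any gene was not tested. Sp100 was at 156 to 161 CPM in LNP-GFP libraries in which the NK, T cell and melanoma sums ranged over the widths just given. Other sums varied less within LNP-GFP and did not overlap between the groups. The fibroblast sum was at 9073 to 10131 CPM in LNP-GFP and 2169 to 5632 CPM in LNP-Gsdme. That of conventional dendritic cells was at 126 to 164 CPM in LNP-GFP and 72.1 to 109 CPM in LNP-Gsdme. Daxx in LNP-GFP followed the order of the melanoma sum, which was 324, 1752 and 1054 CPM in LNP-GFP 1 to 3, but in LNP-Gsdme it did not, with Daxx lowest in LNP-Gsdme 3, where that sum was highest. Pml was highest in LNP-Gsdme 3, which also had the highest fibroblast and melanoma sums of its group, and lowest in LNP-GFP 2, which had the highest of both sums. B cells are known to express Sp140, and of 7 B cell markers 2 had enough counts to be tested and 0 passed by edgeR (0 at an unadjusted p below 0.05; 0 by DESeq2 and by limma-voom). Their sum was 4.64 to 5.80 CPM in LNP-Gsdme and 6.05 to 6.24 CPM in LNP-GFP. Sp140 is also known from other lymphocytes and from macrophages. The T cell sum was 442 to 570 CPM in LNP-Gsdme and 177 to 523 CPM in LNP-GFP, with a median log2 fold change of 0.54. For the macrophage markers that median was -0.23. No marker sum was tested against Sp140.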

How the data were processed

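Total RNA of sorted monocytes was made into paired-end TruSeq libraries, per the labels' protocols. The submitters' processing notes name GRCm39, and no aligner, counter, strand setting or annotation release is named in the sources used here. The authors deposited 1 table with raw counts per gene and FPKM for 6 libraries, per the file headers. Groups came from the treatment label and replicate numbers from the titles. The members and gene lists were chosen with earlier results of these data known.

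The raw counts went into edgeR 4.0.16 under R 4.3.3 (filterByExpr by group, TMM factors, robust quasi-likelihood test, Benjamini-Hochberg adjustment over 16010 genes, threshold 0.05). CPM use library totals multiplied by TMM factors. SE is the log2 fold change over the square root of F. The deposited FPKM were used for levels between genes and for ratios, with exact permutation over 20 assignments. Code was tested on simulated counts. Libraries of a group differed by more than sampling noise (chi-square per gene of 11.3 to 58.0). Counts assigned to identifiers without a symbol (0.112 to 0.150% per library) stayed in. Of the list symbols Sp140l1 and Sp140l2 were not matched in the table and were not analysed here.

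Named genes were the 5 members, the 3 called genes with the smallest p in each list, relatives and named neighbours, and the 3 most similar profiles per member, leaving out predicted models and pseudogenes. Some genes that this rule names are not reported here. The alternatives were DESeq2 1.42.0, limma-voom (limma 3.58.1), other scalings and filters, a fit that was not robust, a block for the replicate number and each library left out.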

Additional observations from a re-analysis of the deposited data

How the results depend on the processing

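All 5 genes kept a positive log2 fold change under all 15 alternatives, and Sp100 kept its call in all 15 (adjusted p from 3.27e-15 by DESeq2 to 0.0482). Of the calls on single genes, DESeq2 added Sp110 (0.56), and Sp140 was lost with upper-quartile factors (0.64) and in the replicate block fit (0.67). The count of risen members was 3 by DESeq2, 1 with upper-quartile factors and 1 in the replicate block fit. DESeq2 called 2 histone and heterochromatin partners, 7 interferon factors and 6 neighbours, and scaling by library size only called 2 histone and heterochromatin partners. Csprs was not called with upper-quartile factors, without a low-count filter or with the stricter one (0 relatives each), and without a filter 0 histone and heterochromatin partners were called. The stricter filter removes Csprs. The labels do not say whether the replicate numbers pair the libraries. Same-numbered deviations from the group means had correlations of 0.21, -0.29 and 0.03, and LNP-Gsdme 2 and 3 were most like LNP-GFP 1 and 2. These correlations cannot decide the pairing, because deviations from a mean of 3 libraries depend on one another. With the replicate number as a block, 0 relatives, 0 SUMO genes, 0 histone and heterochromatin partners, 1 client, 1 interferon factor and 0 neighbours were called, and over all genes 103 rose and 52 fell, against 1008 and 851 without it. With each library left out, the log2 fold change of Sp140 ranged from 0.53 to 0.82 without its call, 1 member rose each time, and the calls ranged from 0 to 1 relatives, 0 to 3 SUMO genes, 0 to 2 histone and heterochromatin partners, 0 to 4 clients, 1 to 6 interferon factors and 0 to 4 neighbours. Over all genes 64 rose and 24 fell without LNP-GFP 3, 107 and 46 without LNP-Gsdme 1, 119 and 68 without LNP-Gsdme 2, 594 and 353 without LNP-GFP 2, 1625 and 1216 without LNP-GFP 1, 930 and 1201 without LNP-Gsdme 3, 855 and 1055 with upper-quartile factors, and 1469 and 1514 by DESeq2. In the last 3 more genes fell than rose. The log2 difference of the Daxx to Pml ratio was -0.11 and turned to 0.17 without LNP-Gsdme 3 and 0.27 without LNP-GFP 2 (range -0.46 to 0.27). Fewer libraries entered each fit with one left out, and otherwise the cause of a lost or added call was not tested.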

Other observations

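In the SUMO pathway, 3 genes stood out for single libraries rather than for a group, and were singled out after their values were seen. Sumo3, which encodes a SUMO protein, was at 66.9, 68.4 and 20.4 CPM in LNP-Gsdme 1 to 3, against 53.6, 15.9 and 52.7 CPM in LNP-GFP 1 to 3. The low libraries were LNP-Gsdme 3 and LNP-GFP 2, while the others lay between 52.7 and 68.4 CPM (edgeR adjusted p = 0.711 for the groups). Sumo2 was at 22.5, 24.6 and 23.1 CPM in LNP-Gsdme 1 to 3, against 22.7, 8.75 and 22.5 CPM in LNP-GFP 1 to 3, and was low in LNP-GFP 2 too. Zfp451, a SUMO ligase, was at 48.3, 39.1 and 113 CPM in LNP-Gsdme 1 to 3, against 39.8, 40.5 and 43.7 CPM in LNP-GFP 1 to 3, so that LNP-Gsdme 3 alone was high (edgeR adjusted p = 0.262). LNP-Gsdme 3 and LNP-GFP 2 were also the libraries with the highest summed melanoma markers of their groups, at 724 and 1752 CPM, and what part these had was not tested.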
